A study of Homo sapiens with 12 samples.

Results

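The comparison followed T47D cells held in 10 nM progestin from 6 h to 18 h. It used 4 of the 12 RNA libraries of the study, chosen by the dose and time in their labels. Replicates 1 and 3 of the 10 nM group at 18 h were set against replicates 1 and 3 of that group at 6 h. The 4 vehicle libraries (replicates 1 and 3 at 6 h and at 18 h) served to see how far gene levels drift with time when no hormone is given. The 4 libraries at 100 pM were a side comparison added later. T47D is an established line of human breast carcinoma cells with receptors for progesterone and estrogen. All 6 groups were made from this single line, which was serum-starved in charcoal-stripped, phenol red-free medium before treatment. Vehicle cells were thus also starved and had little steroid. The labels name neither the progestin nor the vehicle. By its title the series is about how the output of breast cancer cells varies with the amount of progestin. The change between 6 h and 18 h at the higher dose is one side of that question.

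Progestins act through the progesterone receptor (PGR), a nuclear receptor that binds hormone response elements in DNA once a ligand is bound. The receptor is itself degraded and repressed under its ligand. In the breast this receptor drives side branching and alveolar growth, partly through signals sent to neighbouring cells. In cultured breast cancer cells progestins are known first to move resting cells into the cell cycle and later to hold them in G1, with cyclin D1 and MYC among the early genes and CDK inhibitors among the later ones. Hours also separate genes bound by the receptor itself from genes that respond to the proteins made first.

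Total counts were 35808348 to 38158613 in the 10 nM libraries, within the range of all 12 (34204970 to 41373890). The share of counts from mitochondrially encoded genes was 6.73% and 8.93% at 6 h and 6.75% and 9.49% at 18 h (replicate 1, then replicate 3), so it went with the replicate number rather than with time. Of the 24 luminal epithelial markers listed, none was at 0 in any 10 nM library, and together they summed to 10140 and 10370 CPM (counts scaled to library size) at 6 h and 8971 and 9459 CPM at 18 h. In vehicle the luminal sums were 14000 and 14290 CPM at 6 h and 14690 and 14260 CPM at 18 h. The 23 basal and myoepithelial markers summed to 385.9 and 407 CPM at 6 h and 470.1 and 489.5 CPM at 18 h of 10 nM. Immune and endothelial markers were low. The 16 immune markers summed to 3.79 to 5.54 CPM, with 6 to 9 of them at 0. The 8 endothelial markers summed to 3.71 to 10.7 CPM, with 6 at 0. The 14 fibroblast markers summed to 115.1 and 118 CPM at 6 h and 84.7 and 77.1 CPM at 18 h, with 3 or 4 at 0. Most of that sum was collagen COL1A1, which vehicle cells held at 105 and 109.7 CPM at 6 h and 114 and 111 CPM at 18 h and 10 nM cells at 108 and 105 CPM at 6 h and 79.7 and 66.1 CPM at 18 h (log2 fold change -0.55 ± 0.10, adjusted p = 0.00559). All libraries were made from the single line T47D, so these sums describe marker genes read in cultures of that line. Whether any other cells were present was not tested. In bulk RNA, fewer cells that express a gene and less of its RNA per cell cannot be told apart.

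In what follows, paired values are given as replicate 1, then replicate 3. A value in parentheses such as 1.04 ± 0.20 is a log2 fold change, 18 h against 6 h, with its standard error. Genes were called at an adjusted p under 0.05 (edgeR quasi-likelihood test, Benjamini-Hochberg over 13872 genes), and "rose" and "fell" are kept for called genes. The labels do not say whether the 2 libraries of a group are from separate cultures. The p-values measure the spread between libraries within groups, pooled over all 6 groups. That spread may therefore be technical. Libraries of the same replicate number deviated together. A count or call is also given "with pairing" where adding the replicate number to the fit changed it. For counts this means a change by more than 1.5 times. Fits that left out 1 library had no pairing, so they left the replicate numbers unbalanced within the comparison.

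Between 6 h and 18 h at 10 nM, 3393 of 13872 genes were called (24.5%), of which 1576 rose (11.4%) and 1817 fell (13.1%). With pairing these counts were 3388 (24.4%) and 3431 (24.7%), and all 3393 genes of the unpaired fit were among them. Without 18 h replicate 3, 6 h replicate 1 or 6 h replicate 3 the calls numbered 1955, 1817 and 1942. More rises than falls were large: 526 genes rose and 321 fell by more than 2-fold, while the median over all genes was 0.01. Vehicle cells over the same interval gave 0 calls (0%). At an unadjusted p under 0.05 there were 178 genes in vehicle against 5170 at 10 nM (1343 against 7703 with pairing). With pairing 4 vehicle genes (0.0288%) were called, all of them higher at 18 h: ATF3, DDIT3, ICAM1 and MTRNR2L12, which are named here after their values were seen. ATF3 and DDIT3 are stress-induced transcription factors and ICAM1 an adhesion molecule of inflamed cells.

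The called genes were also placed against the vehicle libraries of the same time. Of the 1576 genes that rose, 1027 (65.2%) lay below both vehicle libraries in both 10 nM libraries at 6 h, as did 35.4% of all genes tested. By 18 h 350 of those 1027 lay above both vehicle libraries, 320 overlapped vehicle and 357 were still below. Another 344 of the 1576 (21.8%) were above vehicle at both times, a share near that of all genes (23.2%). Of the 1817 genes that fell, 1378 (75.8%) lay above vehicle at 6 h, against 36.1% of all genes, and by 18 h 550 of these remained above, 396 overlapped and 432 lay below. A further 268 (14.7%) were below vehicle at both times, against 21.3% of all genes. Over all genes, 33.2% lay above and 32.6% below vehicle at 18 h. The same 10 nM libraries decide the call and the position, so these shares describe the called genes and are no independent test.

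FAM83A, an adaptor protein of growth factor signalling, showed the largest rise among genes of moderate abundance. It was measured at 0.221 and 0.169 CPM at 6 h and 4.68 and 11.2 CPM at 18 h (5.32 ± 0.54, adjusted p = 0.000441), against 3.26 and 2.56 CPM at 6 h and 3.66 and 3.03 CPM at 18 h in vehicle. The 6 h level was below vehicle in both libraries and the 18 h level above it in both, although the 18 h libraries differed from each other by more than for the next genes. SLPI, a secreted inhibitor of neutrophil elastase, went from 3.46 and 3.33 CPM at 6 h to 38.9 and 38.0 CPM at 18 h (3.501 ± 0.39, adjusted p = 0.000731). Vehicle cells had 0.610 and 0.205 CPM at 6 h and 0.643 and 0.487 CPM at 18 h, so SLPI was already above vehicle at 6 h and went on rising. SEPT14, a septin, was near absent from vehicle (0 and 0.0512 CPM at 6 h, 0 and 0 CPM at 18 h) and was measured at 1.25 and 3.30 CPM at 6 h and 32.3 and 39.8 CPM at 18 h (3.99 ± 0.50, adjusted p = 0.0017). Copies of this gene elsewhere in the genome could share its reads, so its level is uncertain. ANXA1, the phospholipid-binding protein annexin A1 known as a glucocorticoid target, held 3.46 and 2.91 CPM at 6 h and 31.1 and 21.3 CPM at 18 h (3.04 ± 0.55, adjusted p = 0.00536), while vehicle held 5.77 and 2.64 CPM at 6 h and 11.6 and 6.91 CPM at 18 h. RNF43, a ubiquitin ligase that removes Frizzled receptors and so limits Wnt signalling, had 24.1 and 25.5 CPM at 6 h and 23.4 and 23.3 CPM at 18 h in vehicle, 2.16 and 4.12 CPM at 6 h of 10 nM and 14.1 and 22.4 CPM at 18 h (2.54 ± 0.30, adjusted p = 0.000893). It was far below vehicle at 6 h and closer to it at 18 h.

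The other 9 of the 14 largest rises were NELL2 (3.11 ± 0.68), ARMC12 (2.77 ± 0.69), LRRN3 (2.68 ± 0.73), IFIT2 (2.56 ± 0.61), C1orf168 (2.44 ± 0.52), CLDN8 (2.43 ± 0.54), ELFN2 (2.40 ± 0.63), the endogenous retroviral envelope gene ERVV-2 (2.35 ± 0.66) and FADS1 (2.34 ± 0.45). NELL2 is a secreted glycoprotein, IFIT2 an interferon-induced RNA-binding protein, CLDN8 a claudin of tight junctions and FADS1 a desaturase of polyunsaturated fatty acids. Their adjusted p values ran from 0.00705 to 0.0329, and each lost its call when some single library was left out. Leaving out 18 h replicate 1 ended the calls of IFIT2 (1.81, adjusted p = 0.0907), ELFN2 (2.60, adjusted p = 0.0566) and ERVV-2 (1.06, adjusted p = 0.234). Without 18 h replicate 3 the calls lost were ARMC12 (1.92, adjusted p = 0.119), LRRN3 (2.08, adjusted p = 0.14), C1orf168 (2.196, adjusted p = 0.0539), CLDN8 (2.11, adjusted p = 0.0636) and ELFN2 (2.18, adjusted p = 0.109). The fit that left out 6 h replicate 1 lost NELL2 (3.49, adjusted p = 0.0557), ARMC12 (2.34, adjusted p = 0.13), LRRN3 (2.21, adjusted p = 0.164), IFIT2 (2.91, adjusted p = 0.0659), C1orf168 (1.95, adjusted p = 0.0666), CLDN8 (1.90, adjusted p = 0.076), ELFN2 (2.16, adjusted p = 0.146) and ERVV-2 (2.83, adjusted p = 0.0864). Finally, leaving out 6 h replicate 3 cost the calls of NELL2 (2.81, adjusted p = 0.0824), ARMC12 (3.38, adjusted p = 0.0578), LRRN3 (3.36, adjusted p = 0.0723), IFIT2 (2.27, adjusted p = 0.102), ELFN2 (2.69, adjusted p = 0.0919), ERVV-2 (1.99, adjusted p = 0.167) and FADS1 (2.11, adjusted p = 0.0524). In all 9 genes both 18 h libraries were above both 6 h libraries. The fits without 1 library had no pairing. With all libraries and pairing all 9 genes were called, with adjusted p from 2.15e-07 (ARMC12) to 0.00127 (ERVV-2). ERVV-2 has a close copy beside it. Its 18 h level of 56.3 and 14.4 CPM differed between the libraries by more than for the others. Of the 14 largest rises, 4 (FAM83A, SLPI, CLDN8 and RNF43) were also called in the test against the vehicle time change, described below. Of the 14 largest falls 12 were. ANXA1, which was higher at 18 h in vehicle too (1.13 ± 0.52), was called there only with pairing (adjusted p = 0.14 and, with pairing, 0.000358). SEPT14 was called in neither fit (adjusted p = 0.194 and, with pairing, 0.135).

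Several of the largest falls were more even between replicates, although CTNND2, SERPINA6 and CRYM, given below, were not (standard errors of 0.60 to 0.64). FGF12, an intracellular relative of fibroblast growth factors that binds sodium channels, went from 12.5 and 11.5 CPM at 6 h to 1.09 and 1.12 CPM at 18 h (-3.44 ± 0.14, adjusted p = 2.52e-05), with 20.2 and 21.8 CPM at 6 h and 20.9 and 22.7 CPM at 18 h in vehicle. BCAS1, a gene first described as amplified in breast carcinoma, went from 84.8 and 80.6 CPM to 10.2 and 13.8 CPM (-2.78 ± 0.14, adjusted p = 4.90e-05), where vehicle had 189 and 169.9 CPM at 6 h and 216 and 209 CPM at 18 h. Both were below vehicle at 6 h and lower again at 18 h. The nucleotidase ENTPD3 (6.09 and 3.58 CPM at 6 h and 0.517 and 0.506 CPM at 18 h, -3.23 ± 0.35, adjusted p = 0.000554) and the Slit receptor ROBO2 (25.5 and 19.97 CPM at 6 h and 3.21 and 4.44 CPM at 18 h, -2.57 ± 0.19, adjusted p = 0.000145) took the same course. NAALADL2, a transmembrane peptidase-like protein, and FBP1, the fructose bisphosphatase of gluconeogenesis, lay closer to vehicle at 6 h. NAALADL2 had 62.0 and 59.0 CPM in vehicle and 51.8 and 42.1 CPM at 6 h and 6.92 and 9.35 CPM at 18 h at 10 nM (-2.53 ± 0.18, adjusted p = 0.000128). FBP1 had 45.9 and 58.6 CPM in vehicle and 33.6 and 43.7 CPM at 6 h and 6.49 and 10.4 CPM at 18 h at 10 nM (-2.19 ± 0.25, adjusted p = 0.000783).

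A second kind of fall was a surge at 6 h that had largely gone by 18 h. APLN encodes apelin, a peptide hormone. It was close to absent in vehicle (0.127 and 0.205 CPM at 6 h and 0.168 and 0.325 CPM at 18 h), reached 36.4 and 42.0 CPM at 6 h of 10 nM and was back to 10.3 and 7.44 CPM at 18 h (-2.14 ± 0.22, adjusted p = 0.000434). PALMD, the actin-associated protein palmdelphin, was at 3.28 and 5.15 CPM in vehicle at 6 h, 30.7 and 34.8 CPM at 10 nM and then 4.71 and 5.45 CPM (-2.69 ± 0.40, adjusted p = 0.0022). CITED1, a transcriptional coregulator that lacks a DNA-binding domain, went from 1.68 and 2.66 CPM in vehicle to 25.5 and 29.8 CPM and back to 3.73 and 4.94 CPM (-2.67 ± 0.23, adjusted p = 0.000241). The 18 h libraries of all 3 genes lay below both 6 h libraries at 10 nM and still above both vehicle libraries of 18 h. FAM65C (-2.16 ± 0.39), CTNND2 (-3.14 ± 0.61), SERPINA6 (-2.62 ± 0.64) and CRYM (-2.56 ± 0.60) complete the 14 with TPM4, which is described with the actin genes. SERPINA6 encodes corticosteroid-binding globulin and CRYM a cytosolic thyroid hormone-binding protein. Leaving out 18 h replicate 1 ended the call of SERPINA6 (-2.13, adjusted p = 0.103) and CRYM (-2.13, adjusted p = 0.0907). Leaving out 6 h replicate 3 did so for SERPINA6 (-1.84, adjusted p = 0.114) and CRYM (-2.15, adjusted p = 0.0808). Leaving out 18 h replicate 3 did so for CTNND2 (-2.84, adjusted p = 0.0536).

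**Figure D1:**
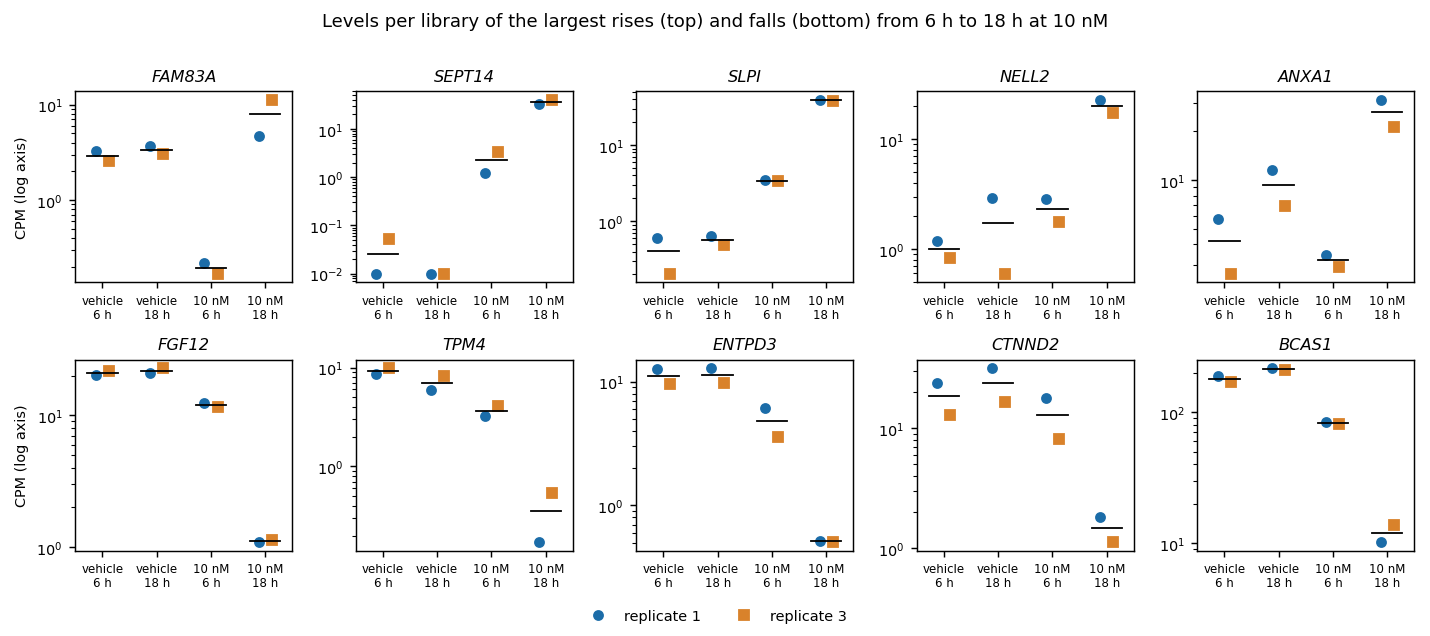
Level of 10 genes (CPM, log axis) in each vehicle and 10 nM library at 6 h and 18 h. Circles are replicate 1, squares replicate 3 and lines the group mean, and a CPM of 0 is drawn at 0.01. The upper row holds the 5 largest rises and the lower row the 5 largest falls at 10 nM, and in each panel both 18 h libraries of 10 nM lie clear of both 6 h libraries.

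Among the 6 steroid receptor genes tested, 2 rose and none fell (3 and 1 with pairing). Over all genes 11.4% rose and 13.1% fell (24.4% and 24.7% with pairing). NR3C2, the mineralocorticoid receptor, went from 4.26 and 4.23 CPM at 6 h to 10.8 and 13.1 CPM at 18 h (1.497 ± 0.13, adjusted p = 0.000276), and its 18 h values spanned those of vehicle (10.9 and 11.3 CPM). ESR1, estrogen receptor alpha, went from 49.2 and 71.1 CPM to 84.1 and 108 CPM (0.68 ± 0.19, adjusted p = 0.0333) and stayed below vehicle (165 and 189 CPM at 18 h). That call was lost without 18 h replicate 3 (0.48, adjusted p = 0.188) or 6 h replicate 1 (0.44, adjusted p = 0.177). PGR itself was measured at 589 and 493 CPM at 6 h and 523 and 328 CPM at 18 h (-0.35 ± 0.29, adjusted p = 0.423) against 2111 and 1786 CPM at 6 h and 1846 and 1379 CPM at 18 h in vehicle. Its 2 libraries overlapped between the times at 10 nM, and with pairing it was called lower (adjusted p = 0.0127). NR3C1, the glucocorticoid receptor, held 16.4 and 11.9 CPM at 6 h and 19.1 and 13.5 CPM at 18 h and was not called (0.20 ± 0.20, adjusted p = 0.505).

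Of 37 tested genes known to respond to progestins or glucocorticoids, 7 rose and 2 fell, with a median of 0.32. With pairing 16 rose and 5 fell. The shares of all genes that rose and fell were 11.4% and 13.1% (24.4% and 24.7% with pairing). Without 18 h replicate 3 and without 6 h replicate 1 the rises were 4 and 3. HSD11B2, which inactivates cortisol, climbed from 26.2 and 37.7 CPM to 61.1 and 83.9 CPM (1.18 ± 0.21, adjusted p = 0.00463), far above vehicle at both times (2.72 and 2.33 CPM at 6 h and 3.05 and 3.03 CPM at 18 h). KLF9, a zinc finger repressor induced by these receptors, climbed from 8.47 and 8.32 CPM to 20.6 and 17.5 CPM (1.18 ± 0.22, adjusted p = 0.00625). MT1X, a metallothionein, behaved in the opposite way and dropped from 5.87 and 11.002 CPM to 1.32 and 1.80 CPM (-2.43 ± 0.36, adjusted p = 0.00213), with 0.585 and 0.564 CPM at 6 h and 0.643 and 0.406 CPM at 18 h in vehicle. Metallothionein genes are alike in sequence, so reads could be split among them. SGK1, a kinase that regulates sodium channels, was measured at 8.996 and 18.1 CPM at 6 h and 30.1 and 46.2 CPM at 18 h (1.49 ± 0.39, adjusted p = 0.0239) and lost its call without 18 h replicate 3 (1.15, adjusted p = 0.130) or 6 h replicate 1 (1.07, adjusted p = 0.129). FKBP5, the cochaperone that dampens glucocorticoid receptor activity, was at 419.8 and 612 CPM at 6 h and 726 and 1080.1 CPM at 18 h, over 10 times its vehicle level in each library pair at 30.6 and 59.4 CPM at 6 h and 28.1 and 44.4 CPM at 18 h. Its 18 h libraries were both above the 6 h libraries, and its difference of 0.81 ± 0.36 was called only with pairing (adjusted p = 0.142 and, with pairing, 0.00109). GREB1, a cofactor of the estrogen receptor, was level between the times (881 and 1009 CPM at 6 h and 1106 and 983 CPM at 18 h, 0.14 ± 0.12, adjusted p = 0.421) and above vehicle at both (183 and 213 CPM at 6 h and 160.2 and 156 CPM at 18 h). STAT5A, the transcription factor downstream of the prolactin receptor, was at 8.69 and 11.03 CPM at 6 h and 18.9 and 21.5 CPM at 18 h (1.03 ± 0.45, adjusted p = 0.134; with pairing 0.0437).

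Estrogen receptor target genes moved in both directions, with 1 of 20 tested rising and 3 falling (4 and 8 with pairing, and no rise without 18 h replicate 3 or 6 h replicate 1). Over all genes 11.4% rose and 13.1% fell (24.4% and 24.7% with pairing). IGFBP4, which sequesters insulin-like growth factors, fell from 92.6 and 105 CPM to 30.7 and 31.3 CPM (-1.67 ± 0.12, adjusted p = 0.000145), further below its vehicle level of 166 and 176 CPM at 18 h. CA12, a membrane carbonic anhydrase, fell from 532 and 526 CPM to 281 and 265 CPM (-0.95 ± 0.09, adjusted p = 0.000285) and remained above vehicle (77.2 and 89.1 CPM at 18 h).

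**Figure D2:**
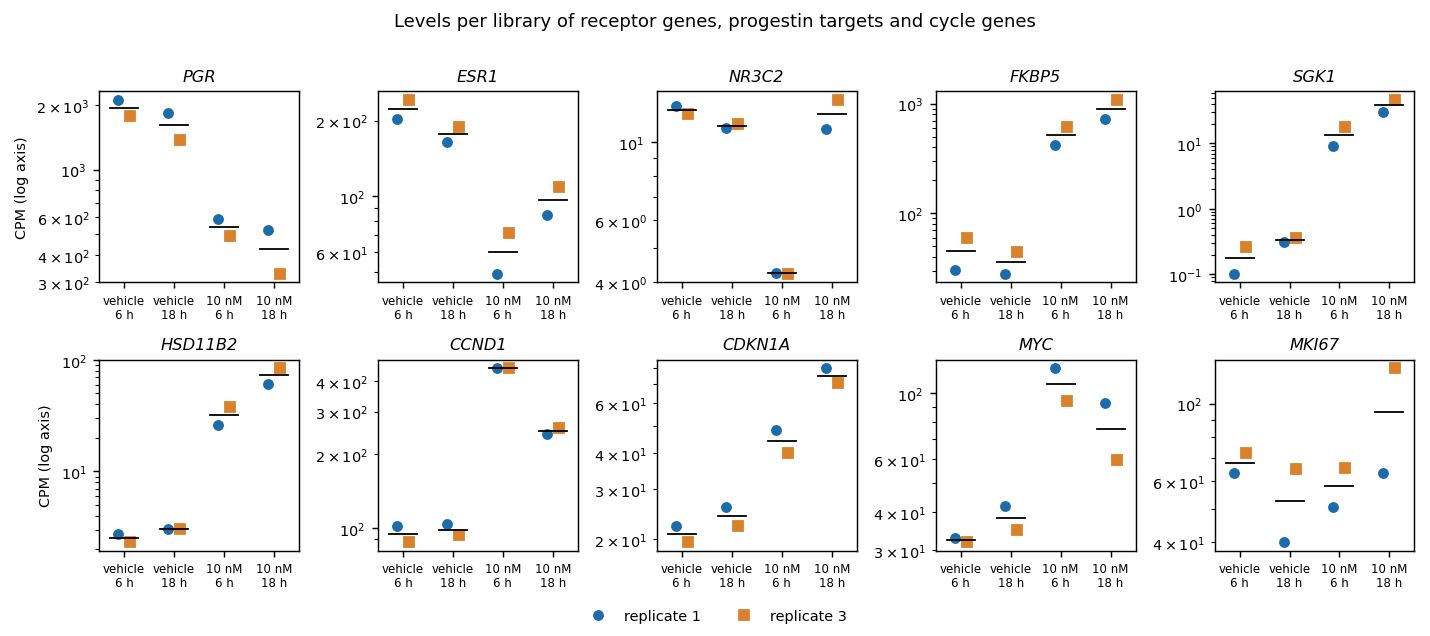
Level of 10 genes (CPM, log axis) in each vehicle and 10 nM library at 6 h and 18 h, with circles for replicate 1, squares for replicate 3 and lines for the group mean. PGR and ESR1 stay below vehicle at both times of 10 nM, NR3C2 is low only at 6 h, FKBP5, SGK1 and HSD11B2 are above vehicle at both times, and CCND1 is higher at 6 h than at 18 h.

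Immediate-early genes code for short-lived transcription factors that cells make within minutes of a stimulus. Of 18 tested, 5 rose and none fell, with a median of 0.50 (8 rose and 3 fell with pairing, and 3 rose without 6 h replicate 1). The shares of all genes that rose and fell were 11.4% and 13.1% (24.4% and 24.7% with pairing). FOS rose from 1.47 and 1.72 CPM to 5.94 and 8.99 CPM (2.23 ± 0.27, adjusted p = 0.000893), from below its vehicle level (2.49 and 3.10 CPM at 6 h) to above it (3.05 and 3.60 CPM at 18 h). JUNB, a partner of FOS in AP-1, rose from 13.95 and 13.3 CPM to 30.7 and 38.8 CPM (1.35 ± 0.21, adjusted p = 0.00293). IER2 rose from 18.2 and 16.4 CPM to 33.3 and 38.7 CPM (1.06 ± 0.11, adjusted p = 0.000513). Both stayed below vehicle, which had 56.5 and 43.7 CPM of JUNB and 81.2 and 73.0 CPM of IER2 at 18 h. MYC, the transcription factor that drives growth and ribosome production, was at 121 and 94.1 CPM at 6 h and 92.5 and 59.5 CPM at 18 h against 32.8 and 31.8 CPM at 6 h and 41.8 and 34.8 CPM at 18 h in vehicle. The 18 h libraries of MYC were both below the 6 h libraries, but its difference of -0.50 ± 0.32 was called only with pairing (adjusted p = 0.303 and, with pairing, 0.0224). In the 17 tested feedback genes of the MAP kinase pathway 3 rose and 2 fell (5 and 5 with pairing, and 1 to 2 and 0 to 2 when 1 library was left out). DUSP4, a phosphatase that switches off ERK, rose from 14.1 and 27.0 CPM to 61.6 and 77.7 CPM (1.76 ± 0.32, adjusted p = 0.00558), while vehicle had 8.00 and 8.64 CPM at 18 h.

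Of the 36 lists, ribosome biogenesis had the largest share called in a single direction. It covers the nucleolar factors that transcribe ribosomal RNA, cut and modify it and assemble the subunits. Of 46 members, all tested, 32 fell (13.1% of all genes did) and none rose, with a median of -0.68. In 41 of the 46 both 18 h libraries lay below both 6 h libraries, as did 30.9% of all genes tested. Without 18 h replicate 3 and without 6 h replicate 1, 19 and 20 fell. Of the same 46 genes 41 were above both vehicle libraries at 6 h, against 36.1% of all genes. At 18 h 16 were, a share near the 33.2% of all genes. DKC1, the pseudouridine synthase dyskerin, was at 153 and 140.3 CPM at 6 h and 74.5 and 67.2 CPM at 18 h (-1.05 ± 0.08, adjusted p = 0.000177), with 67.7 and 65.2 CPM at 6 h and 67.5 and 65.4 CPM at 18 h in vehicle. NOLC1, a nucleolar phosphoprotein, was at 322 and 299 CPM and then 176 and 168 CPM (-0.85 ± 0.07, adjusted p = 0.000227), close to its vehicle values of 178 and 172 CPM at 18 h. MRTO4, an assembly factor of the large subunit, was at 56.0 and 60.4 CPM and then 27.3 and 27.9 CPM (-1.08 ± 0.09, adjusted p = 0.000227). NOP14, a factor of the small subunit, was at 209.5 and 220.4 CPM and then 124 and 122 CPM (-0.80 ± 0.07, adjusted p = 0.000227), which was still above vehicle (92.6 and 94.3 CPM at 18 h). In each of these genes the 6 h libraries were the high pair and the 18 h libraries the low pair, with no overlap. The members that were not called include the abundant nucleolar proteins NPM1 (-0.11 ± 0.14) and FBL (-0.18 ± 0.15), named here after their values were seen.

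The promoter windows of MRTO4, NOP14 and PES1 are printed as examples in which the letters CACGTG lie just after the start. These are the letters of the canonical E-box, the hexamer that MYC with MAX and other proteins of the same class bind. Each window runs from 90 bases before to 30 bases after the transcription start given by RefSeq (GRCh38.p14), 5′ to 3′ on the gene's strand, with the match in capitals. MRTO4 lies at chr1:19251715-19251834, plus strand, NOP14 at chr4:2963377-2963496, minus strand and PES1 at chr22:30591881-30592000, minus strand. PES1, a factor of the large subunit (-0.96 ± 0.12, adjusted p = 0.00126), was picked for its window after its values were seen.
MRTO4: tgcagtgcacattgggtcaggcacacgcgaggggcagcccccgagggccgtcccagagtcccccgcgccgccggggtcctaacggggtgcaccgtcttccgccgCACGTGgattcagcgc
NOP14: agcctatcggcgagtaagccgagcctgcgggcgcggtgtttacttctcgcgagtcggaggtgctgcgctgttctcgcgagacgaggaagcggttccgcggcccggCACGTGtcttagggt
PES1: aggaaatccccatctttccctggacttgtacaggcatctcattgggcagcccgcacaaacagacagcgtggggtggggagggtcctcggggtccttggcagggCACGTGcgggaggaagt
CACGTG reads the same on both strands. Windows from 250 bases before to 50 after the start were available for 37 of the 46 ribosome biogenesis genes. CACGTG was found in 15 of their 45 windows (33.3%), from 15 genes, and in 9.05% of 15164 windows of 10340 tested genes. It was in 12.1% of windows of genes that fell and 6.91% of windows of genes that rose. In the other lists searched the share ran from 0% (actin, adhesion and YAP genes) to 20.5% (progestin and glucocorticoid response genes). Cholesterol genes had 16.7%. The E-box was added to the search after the data were seen, and a match is a description of letters, with no binding measured here. The E2F core letters (TCCCGC or TGGCGC) were in 46.4% of windows of genes that rose. Genes that fell had them in 55.3% and all tested genes in 50.8%. The share was 82.8% in DNA replication genes and 75% in cholesterol genes. The hormone response element letters, GNACA and TGTNC on either strand with 3 bases between, were in 0.425% of windows of genes that rose, 0.424% of genes that fell and 0.251% of all.

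Other lists covered further parts of the protein-making machinery. Over all genes 11.4% rose and 13.1% fell (24.4% and 24.7% with pairing). Of 76 cytosolic ribosomal protein genes tested only RPS26 was called (-0.35 ± 0.10, adjusted p = 0.028), and the median was -0.08 (8 fell with pairing). Pseudogene copies of RPS26 may share its reads, and its call was lost without 18 h replicate 1 (-0.26, adjusted p = 0.148) or 6 h replicate 3 (-0.26, adjusted p = 0.164). Aminoacyl tRNA synthetases, which charge tRNAs with amino acids, had 5 of 20 falling and none rising (12 and 1 with pairing, and 2 to 5 falls when 1 library was left out). FARSA and FARSB, the subunits of the phenylalanine enzyme, fell together: FARSB from 63.6 and 68.7 CPM to 46.2 and 44.3 CPM (-0.55 ± 0.07, adjusted p = 0.00138) and FARSA from 68.6 and 70.1 CPM to 41.7 and 46.7 CPM (-0.65 ± 0.11, adjusted p = 0.00378). Both had been above vehicle at 6 h (37.6 and 38.2 CPM and 47.8 and 51.1 CPM). Heat shock chaperones had 4 of 21 falling and none rising, with a median of -0.33 (13 and 2 with pairing, and 1 to 2 falls when 1 library was left out). Among them HSPA4, a chaperone that loads nucleotide on its partners, fell from 296 and 294 CPM to 228 and 208 CPM (-0.44 ± 0.08, adjusted p = 0.00618), back to the range of vehicle (226 and 208 CPM at 18 h). In the unfolded protein response 2 of 26 rose and 4 fell (6 and 7 with pairing, and 0 and 2 to 3 when 1 library was left out). The coat protein SEC24D (-0.94 ± 0.13, adjusted p = 0.00148) and the endoplasmic reticulum chaperone HYOU1 (-0.60 ± 0.11, adjusted p = 0.00559) were among those that fell. In 21 ATF4 targets 1 rose and none fell (9 and 3 with pairing, and 0 to 1 rises when 1 library was left out).

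All 24 tested genes of cholesterol synthesis and uptake had a fold change above 0 (median 0.83), and in 22 both 18 h libraries were above both 6 h libraries, against 30.9% of all genes. Of the 24, 7 rose and none fell, where 11.4% and 13.1% of all genes did (24.4% and 24.7% with pairing). With pairing 20 rose, and when 1 library was left out 3 to 5 did, with 3, 4 and 3 without 18 h replicate 1, 6 h replicate 1 and 6 h replicate 3. Against vehicle, 11 of the 24 were above both libraries at 6 h (36.1% of all genes) and 21 at 18 h (33.2% of all genes). The replicates differed in this pathway within vehicle too: the median of the members on a log2 scale, relative to the mean of the vehicle libraries, was 0.23 and -0.37 in vehicle at 6 h and 0.37 and -0.22 at 18 h. In 10 nM it was 0.34 and 0.17 at 6 h and 1.46 and 0.97 at 18 h, so that the median went up in each replicate by more than the replicates differed. PMVK, a kinase of the mevalonate pathway, went from 64.7 and 79.5 CPM to 158 and 177 CPM (1.22 ± 0.12, adjusted p = 0.000365), with 46.1 and 52.2 CPM in vehicle at 18 h. STARD4, a cholesterol carrier protein, went from 11.1 and 9.51 CPM to 41.9 and 31.6 CPM (1.83 ± 0.33, adjusted p = 0.00527). EBP, the sterol isomerase, went from 42.9 and 42.5 CPM to 93.9 and 81.1 CPM (1.04 ± 0.20, adjusted p = 0.00751), with 40.2 and 31.0 CPM in vehicle at 18 h.

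Windows of EBP and FDPS show the CCAAT box, the site of the factor NF-Y, which SREBP proteins need beside them at sterol genes. They are drawn to the same limits as above, with the reverse complement ATTGG in capitals because the matches lie on the opposite strand. EBP lies at chrX:48521718-48521837, plus strand and FDPS at chr1:155308776-155308895, plus strand.
EBP: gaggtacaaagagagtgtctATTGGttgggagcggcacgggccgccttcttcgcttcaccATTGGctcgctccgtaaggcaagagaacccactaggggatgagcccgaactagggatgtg
FDPS: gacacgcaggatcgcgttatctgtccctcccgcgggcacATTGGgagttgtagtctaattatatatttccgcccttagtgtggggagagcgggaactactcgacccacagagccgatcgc
CCAAT, sought on both strands, was in 19 of 24 windows of cholesterol genes (79.2%) and in 34.4% of windows of all tested genes. Those 24 windows belonged to 19 of the 24 genes, and 17 genes had the letters. FDPS, the farnesyl diphosphate synthase, was picked for its window after its values were seen. It went from 115 and 107 CPM to 376 and 255 CPM (1.51 ± 0.45, adjusted p = 0.0395), a call that was lost when any of the 4 libraries was left out (adjusted p from 0.0575 without 18 h replicate 3 to 0.158 without 18 h replicate 1). CCAAT was also frequent in groups that gave few calls, such as mitosis genes (69.8% of windows), and in genes that rose (36%) it was about as frequent as overall.

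Of 25 tested genes of fatty acid synthesis and lipid storage 8 rose and none fell, with a median of 0.52 (14 rose and 4 fell with pairing). The shares of all genes that rose and fell were 11.4% and 13.1% (24.4% and 24.7% with pairing). The rises were 4, 3 and 3 without 18 h replicate 3, 6 h replicate 1 and 6 h replicate 3. ACSL3, which activates fatty acids on lipid droplets, went from 77.9 and 94.2 CPM to 144 and 182 CPM (0.92 ± 0.13, adjusted p = 0.00162). ELOVL6, an elongase of saturated chains, went from 9.55 and 12.2 CPM to 22.7 and 22.2 CPM (1.05 ± 0.16, adjusted p = 0.00214). FADS1 overlapped vehicle at 6 h and was above it at 18 h (18.1 and 13.0 CPM at 6 h and 73.9 and 83.3 CPM at 18 h at 10 nM, 27.4 and 16.1 CPM at 6 h and 34.8 and 14.9 CPM at 18 h in vehicle), and lost its call without 6 h replicate 3 (2.11, adjusted p = 0.0524). FASN, the fatty acid synthase, named after its values were seen, was not called (0.91 ± 0.36, adjusted p = 0.101; with pairing 0.000158).

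Of 28 tested genes of the actin cytoskeleton, focal adhesions and the YAP pathway 14 fell and none rose, with a median of -0.41. Over all genes 13.1% fell. In 4 of the 28 the fold change was above 0, up to 0.78. Without 18 h replicate 1, 18 h replicate 3 or 6 h replicate 1 the falls numbered 9, 8 and 6. At 18 h 19 of the 28 lay below both vehicle libraries (32.6% of all genes), and 7 did at 6 h (35.4% of all genes). TPM4, a tropomyosin that coats actin filaments, went from 3.21 and 4.06 CPM to 0.172 and 0.534 CPM (-3.35 ± 0.40, adjusted p = 0.000888), with 8.55 and 9.81 CPM at 6 h and 5.87 and 8.12 CPM at 18 h in vehicle. PXN, the focal adhesion scaffold paxillin, went from 1179 and 1094 CPM to 579.5 and 475 CPM (-1.11 ± 0.12, adjusted p = 0.000516), from above vehicle at 6 h (503 and 566 CPM) to values around it at 18 h (514 and 583 CPM). LIMA1, an actin-bundling protein, and ACTN4, an actin crosslinker, were above vehicle at 6 h and below it at 18 h. LIMA1 was at 251 and 236 CPM at 6 h and 121 and 122 CPM at 18 h (-0.999 ± 0.08, adjusted p = 0.000199) where vehicle had 167 and 171 CPM at 6 h and 157 and 175 CPM at 18 h. ACTN4 was at 610.2 and 602 CPM at 6 h and 406 and 394 CPM at 18 h (-0.60 ± 0.07, adjusted p = 0.00102) where vehicle had 472 and 459 CPM at 6 h and 518 and 508 CPM at 18 h.

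**Figure D3:**
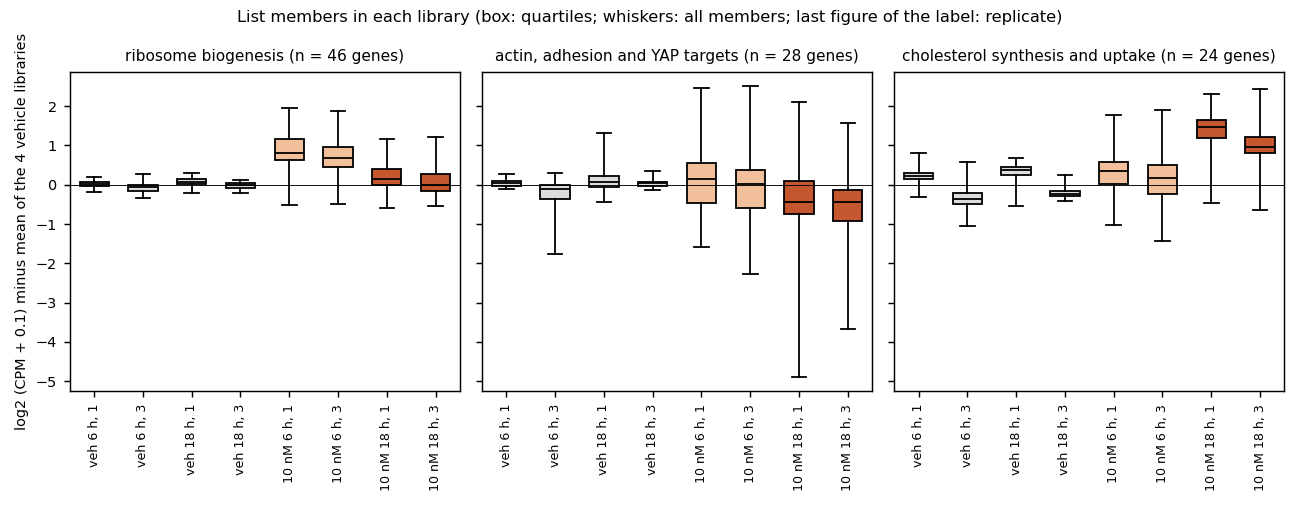
Spread of list members in each vehicle and 10 nM library, as log2 (CPM + 0.1) minus the mean of the 4 vehicle libraries. Boxes are quartiles with the median, and whiskers reach the lowest and highest member. Medians of ribosome biogenesis genes are 0.82 and 0.67 at 6 h and 0.15 and -0.02 at 18 h of 10 nM, those of actin genes 0.15 and 0.01 and then -0.43 and -0.44, and those of cholesterol genes 0.34 and 0.17 and then 1.46 and 0.97.

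Cell cycle genes gave few calls without pairing. Over all genes 11.4% rose and 13.1% fell (24.4% and 24.7% with pairing). CCND1, cyclin D1, fell from 452 and 452 CPM to 242 and 257 CPM (-0.86 ± 0.17, adjusted p = 0.00711) and stayed above vehicle (103 and 93.0 CPM at 18 h). CDKN1A, the CDK inhibitor p21, rose from 48.3 and 40.2 CPM to 79.5 and 70.4 CPM (0.76 ± 0.15, adjusted p = 0.00694), moving further from vehicle (25.9 and 22.2 CPM at 18 h). E2F4, a repressive member of the E2F family, fell from 57.1 and 60.0 CPM to 38.8 and 40.1 CPM (-0.57 ± 0.08, adjusted p = 0.00204). Of the 24 G1 regulators tested 2 rose and 3 fell (9 and 7 with pairing, and 1 to 3 and 2 to 4 when 1 library was left out). CDKN1B, the inhibitor p27, was at 82.7 and 71.3 CPM at 6 h and 66.8 and 64.7 CPM at 18 h (-0.23 ± 0.10, adjusted p = 0.135; with pairing 0.0258). CDKN1C, the inhibitor p57, was at 22.0 and 20.9 CPM at 6 h and 9.90 and 5.06 CPM at 18 h (-1.52 ± 0.57, adjusted p = 0.0856; with pairing 0.000242). E2F1, the activator of S phase genes, was at 25.7 and 51.7 CPM at 6 h and 23.9 and 70.1 CPM at 18 h and was not called (0.28 ± 0.54, adjusted p = 0.75), and its replicates were further apart than its time points.

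In mitosis genes 46 of 49 tested members had a fold change above 0, with a median of 0.53. Of the 49, however, only 2 rose (ASPM and CENPE) and none fell. Over all genes 11.4% and 13.1% did (24.4% and 24.7% with pairing). The median of the mitosis genes was 0.30 without 6 h replicate 1 and 0.81 without 6 h replicate 3. It was 0.99 without 18 h replicate 1, but turned to -0.25 without 18 h replicate 3. These fits had no pairing, so leaving out 1 library also left the replicate numbers unbalanced between the times. With pairing 21 rose, and without 18 h replicate 3, 6 h replicate 1 or 6 h replicate 3 none did. MKI67, the proliferation marker Ki-67, shows the spread behind this: it was at 50.6 and 65.4 CPM at 6 h and 63.4 and 126 CPM at 18 h (0.71 ± 0.38, adjusted p = 0.211; with pairing 0.0127), so that 18 h replicate 1 lay below 6 h replicate 3. Within each replicate number MKI67 was higher at 18 h than at 6 h. ASPM, a spindle protein, was at 28.01 and 28.2 CPM at 6 h and 36.3 and 55.1 CPM at 18 h (0.70 ± 0.18), below vehicle at both times (119.9 and 97.9 CPM at 6 h and 94.0 and 86.0 CPM at 18 h). Its call was lost without 18 h replicate 3 (0.37, adjusted p = 0.116), 6 h replicate 1 (0.70, adjusted p = 0.104) or 6 h replicate 3 (0.70, adjusted p = 0.101). CENPE, a kinetochore motor (0.95 ± 0.27), lost its call in the same fits (0.53, 0.93 and 0.96, with adjusted p = 0.226, 0.136 and 0.132). The same shares of all genes stand beside the DNA replication and histone lists. For DNA replication genes the count was 0 rising and 1 falling of 50 (14 and 3 with pairing). The median of 0.20 turned to -0.33 without 18 h replicate 3 and -0.04 without 6 h replicate 1, and was 0.56 and 0.47 without the other replicate of each time. The called member was SLBP, which binds histone mRNAs and peaks in S phase (113 and 105 CPM at 6 h and 59.9 and 70.4 CPM at 18 h, -0.74 ± 0.12, adjusted p = 0.00364). Among 18 tested replication-dependent histone genes 5 rose and none fell, with a median of 0.72 (10 and 2 with pairing, and 3 and 2 without 18 h replicate 3 and 6 h replicate 1). HIST2H2BE went from 11.4 and 12.6 CPM to 25.5 and 23.2 CPM (1.02 ± 0.18, adjusted p = 0.00429). HIST1H2BG went from 1.30 and 2.03 CPM to 5.37 and 6.46 CPM (1.83 ± 0.32, adjusted p = 0.00492). Histone genes are near-identical copies whose reads may be split, so single members are uncertain.

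Luminal identity genes split: 7 of 23 tested rose and 4 fell (8 and 7 with pairing, and 4 rises without 18 h replicate 3 or 6 h replicate 1). For this and the next lists, the shares of all genes that rose and fell were 11.4% and 13.1% (24.4% and 24.7% with pairing). EHF, an epithelial ETS factor, went from 41.1 and 49.4 CPM to 167 and 218 CPM (2.09 ± 0.23, adjusted p = 0.00063), part of the way back to vehicle (267 and 336 CPM at 18 h). AGR3 rose from 23.5 and 24.5 CPM to 53.8 and 50.3 CPM (1.11 ± 0.16, adjusted p = 0.00201) while its neighbour and relative AGR2 fell from 285 and 298 CPM to 117 and 151 CPM (-1.12 ± 0.16, adjusted p = 0.0018). Both belong to the protein disulfide isomerase family. SPDEF, an ETS factor of secretory cells, fell from 269 and 294 CPM to 131 and 154 CPM (-0.98 ± 0.14, adjusted p = 0.00161), below vehicle (336 and 366 CPM at 18 h). Of 19 basal and myoepithelial markers tested 3 rose and 1 fell (10 and 1 with pairing, and 1 to 2 rises when 1 library was left out). TP63, the basal transcription factor p63, was low throughout at 0.471 and 0.282 CPM at 6 h and 3.30 and 1.94 CPM at 18 h (2.79 ± 0.40, adjusted p = 0.002). The oxytocin receptor OXTR went from 1.74 and 1.44 CPM to 0.545 and 0.337 CPM (-1.84 ± 0.32, adjusted p = 0.00442). Of 9 tested milk and secretory genes 2 rose and none fell (4 and 1 with pairing, and 0 to 2 rises when 1 library was left out). In tight junction and adhesion genes 5 of 27 rose and 3 fell (10 and 10 with pairing, and 2 to 3 rises and 1 to 3 falls when 1 library was left out). The desmosomal cadherin DSG2 rose from 93.0 and 84.3 CPM to 209 and 198 CPM (1.20 ± 0.16, adjusted p = 0.00162), from below vehicle to above it (143 and 119.6 CPM at 18 h). TJP3, a tight junction scaffold, rose from 49.0 and 54.0 CPM to 89.4 and 95.4 CPM (0.84 ± 0.12, adjusted p = 0.00162). CTNND1, the catenin p120 that stabilises E-cadherin, fell from 2090.1 and 1897 CPM to 1305 and 1018 CPM (-0.78 ± 0.12, adjusted p = 0.0024), still above vehicle (705 and 737 CPM at 18 h).

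The counts of the remaining lists stand beside 11.4% of all genes that rose and 13.1% that fell (24.4% and 24.7% with pairing). In 23 tested genes of TGF-beta signalling and its ID targets 3 rose and 5 fell. Among those that fell were the receptor TGFBR1 (-0.78 ± 0.12, adjusted p = 0.00264) and the latency protein LTBP1 (-1.18 ± 0.22, adjusted p = 0.00587). The SMAD inhibitor SKIL rose (0.68 ± 0.10, adjusted p = 0.0019), to 148 and 136 CPM at 18 h, where vehicle had 132 and 141 CPM. SKI, of the same list, fell (-0.40 ± 0.08, adjusted p = 0.00901). Its call was lost without 18 h replicate 1 (-0.37) or 6 h replicate 3 (-0.37). Circadian genes had 3 rising and 3 falling of 20 (8 and 4 with pairing): the repressors PER2 (-1.20 ± 0.12, adjusted p = 0.000446) and CRY2 (-0.81 ± 0.14, adjusted p = 0.00502) fell and BHLHE40 rose (0.72 ± 0.11, adjusted p = 0.00228). PER2 went from 66.8 and 73.9 CPM to 27.5 and 33.9 CPM, just below both vehicle libraries at 18 h (35.1 and 39.0 CPM). In the BCL2 family 2 of 16 rose and 4 fell (3 and 7 with pairing). BID (-0.74 ± 0.12, adjusted p = 0.00398), BIK (-0.76 ± 0.14, adjusted p = 0.00517) and BCL2L1 (-0.52 ± 0.11, adjusted p = 0.0101) fell. BMF rose (0.84 ± 0.17, adjusted p = 0.00805), a call lost with only the 10 nM libraries in the fit (0.85, adjusted p = 0.0592). The call of BCL2L1 was lost without 18 h replicate 3 (-0.44). Of 20 p53 targets 4 rose and 2 fell (7 and 5 with pairing). Of 45 interferon-stimulated genes 4 rose and none fell (14 and 3 with pairing). Against vehicle, 27 of the 45 lay below both libraries at 6 h (35.4% of all genes) and 24 at 18 h (32.6% of all genes). Above both vehicle libraries were 5 at 6 h and 2 at 18 h (36.1% and 33.2% of all genes). TRIM25, a ubiquitin ligase of antiviral signalling, rose from 52.3 and 57.1 CPM to 87.0 and 84.9 CPM (0.65 ± 0.09, adjusted p = 0.00199). It stayed below vehicle (188 and 202 CPM at 6 h and 170 and 168 CPM at 18 h). Glycolysis and hypoxia genes had 2 rising and 3 falling of 29 (4 and 12 with pairing). Aldolase ALDOA rose from 2058 and 2194 CPM to 3778 and 3605 CPM (0.80 ± 0.12, adjusted p = 0.00242). Hexokinase HK1 fell from 434 and 488 CPM to 301 and 276 CPM (-0.68 ± 0.10, adjusted p = 0.002). In oxidative phosphorylation 7 of 43 nuclear genes rose and 2 fell, with a median of 0.07 (8 and 4 with pairing, and 1 to 4 and 0 to 3 when 1 library was left out). UQCRC1, a core subunit of complex III, rose (0.51 ± 0.08, adjusted p = 0.00319). None of the 13 mitochondrially encoded genes, of 18 MHC class I genes and of 4 immune markers was called, with 0 to 2 called in either direction with pairing. Ion and water transport had 2 of 20 rising and 3 falling (8 and 6 with pairing). There the ubiquitin ligase NEDD4L, which takes sodium channels off the membrane, rose from 83.1 and 90.2 CPM to 127 and 125 CPM (0.54 ± 0.07, adjusted p = 0.00146). The NF-kB list had 1 of 20 rising and none falling (3 and 4 with pairing). Of 2 endothelial markers tested 1, ESAM, fell (-1.58 ± 0.32, adjusted p = 0.00797), a call that was lost without 18 h replicate 3 (-1.45, adjusted p = 0.0544). COL1A1 was the only member called of 9 fibroblast markers. Over the 4 fits that left out a 10 nM library, rises and falls ran from 1 to 2 and 3 to 4 in the TGF-beta list, 1 to 2 and 3 in circadian genes, 1 and 2 to 3 in the BCL2 family, 2 to 3 and 0 to 1 in p53 targets and 2 and 1 to 5 in glycolysis genes. Rises ran from 1 to 3 in interferon-stimulated genes, 1 to 3 in ion transport and 0 to 1 in the NF-kB list.

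**Figure D4:**
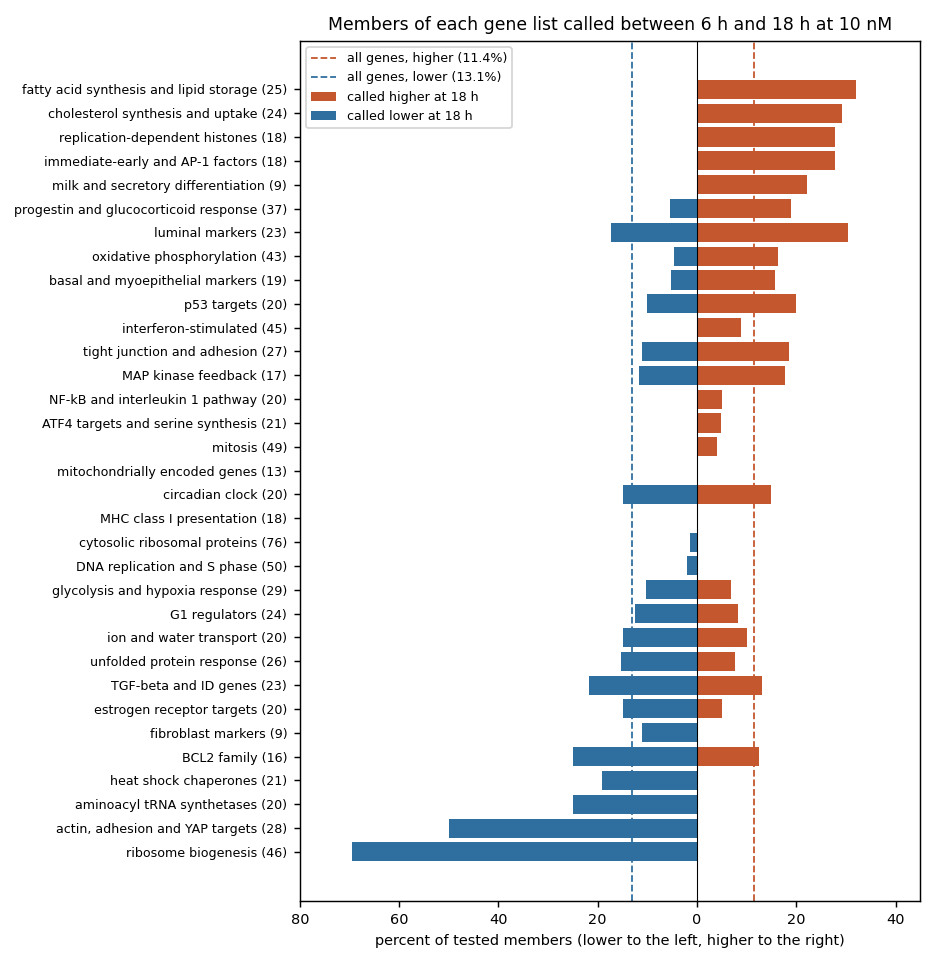
Percent of the tested members of each gene list (number tested in brackets) that were called lower (left, blue) or higher (right, orange) at 18 h than at 6 h of 10 nM, for lists with 9 or more tested members. Dashed lines are the shares over all genes, 13.1% lower and 11.4% higher, and ribosome biogenesis (32 of 46 lower) and actin, adhesion and YAP targets (14 of 28 lower) extend furthest.

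The test of the difference between the time change at 10 nM and that in vehicle called 1462 of 13872 genes (10.5%), 631 with a higher (4.55%) and 831 with a lower change at 10 nM (5.99%). With pairing it called 4863 (35.1%), and when any of the 8 libraries was left out it called 467 to 860, the fewest without vehicle 18 h replicate 1. All 1462 genes were among the 4863, of which 2358 were higher (17% of all genes) and 2505 lower (18.1%). SLITRK5, a synaptic membrane protein, held steady in vehicle at 20.3 and 21.8 CPM at 6 h and 17.8 and 20.4 CPM at 18 h and went from 1.91 and 1.55 CPM to 7.69 and 9.27 CPM at 10 nM (difference 2.43 ± 0.21, adjusted p = 0.00123). CSRNP3, a nuclear transcriptional regulator, held 10.1 and 9.68 CPM at 6 h and 7.69 and 7.61 CPM at 18 h in vehicle and went from 1.08 and 0.846 CPM to 4.71 and 5.00 CPM (difference 2.70 ± 0.34, adjusted p = 0.00355). FGF12 had the smallest adjusted p of the genes named (-3.49 ± 0.18, adjusted p = 0.000201). The test also called 23 of 46 ribosome biogenesis genes lower, 9 of 28 actin genes lower (16 with pairing), 4 of 25 fatty acid genes higher (14 with pairing) and 2 of 24 cholesterol genes higher (17 with pairing). In vehicle the median changes of the 46 ribosome and 24 cholesterol genes were 0.05 and 0.13.

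**Figure D5:**
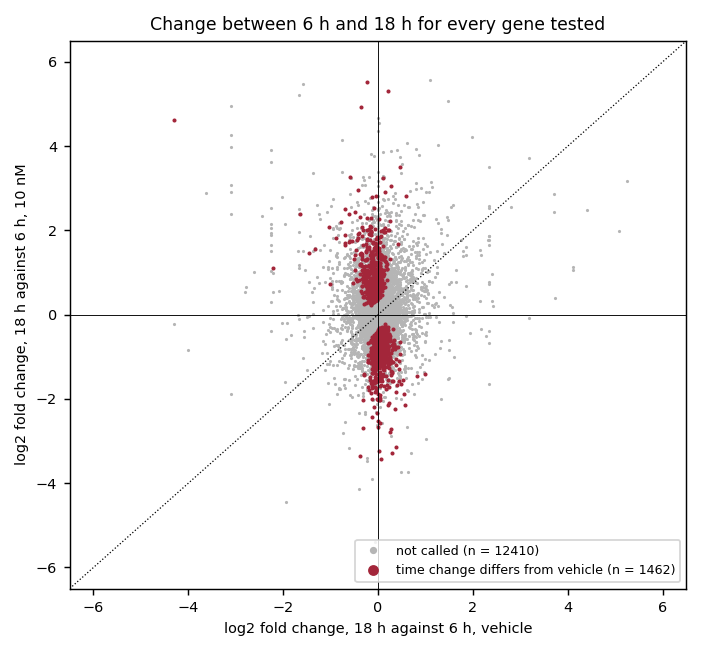
Log2 fold change between 6 h and 18 h for each gene tested, in vehicle (horizontal) and at 10 nM (vertical), with the dotted line marking equal change. The axes end at 6.5 and leave out 3 genes, and the 1462 genes whose change differs between 10 nM and vehicle (red) lie along the vertical axis, near 0 in vehicle.

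At 100 pM the same interval gave 164 calls (1.18%), 73 higher (0.526%) and 91 lower (0.656%), and 3076 with pairing (22.2%), although with only the 4 libraries of 100 pM in the fit it gave 0. When any 1 of those 4 libraries was left out it gave 9 to 26. Of the calls 44.5% were higher, against 56% with DESeq2. The time change at 10 nM differed from that at 100 pM for 1697 genes (12.2%), 769 higher (5.54%) and 928 lower (6.69%), and with pairing for 5215 (37.6%). That test called 22 of 46 ribosome biogenesis genes lower, and none of the 46 was called over time at 100 pM, where their median change was 0.08. DKC1 was at 62.4 and 58.6 CPM at 6 h and 69.3 and 73.2 CPM at 18 h of 100 pM (difference between the doses -1.29 ± 0.11, adjusted p = 0.00119). NR3C2 was at 10.6 and 9.71 CPM and then 7.30 and 6.53 CPM at 100 pM, where it went down rather than up (difference 2.05 ± 0.19, adjusted p = 0.00123; its own change at 100 pM, -0.55 ± 0.13, had an adjusted p of 0.0876). For cholesterol genes 1 of 24 was called in the test between doses, and the median change at 100 pM was 0.41.

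A strong hormone effect could also be flat between the times. The 6 genes with the smallest change over time, among the 200 with the smallest adjusted p for 10 nM against vehicle over both times, were PCGF2, GATA3, AFMID, MTMR12, AK4 and FZD1. GATA3, the luminal transcription factor, was at 412 and 441 CPM at 6 h and 392 and 465 CPM at 18 h (0.01 ± 0.10, adjusted p = 0.962), against 1292 and 1373 CPM at 6 h and 1259 and 1274 CPM at 18 h in vehicle. AK4, a mitochondrial adenylate kinase, was at 291 and 297 CPM at 6 h and 305 and 278 CPM at 18 h, above its vehicle level of 65.6 and 66.3 CPM at 6 h and 62.3 and 63.3 CPM at 18 h. FZD1, a Wnt receptor, was at 57.5 and 65.4 CPM at 6 h and 58.1 and 63.1 CPM at 18 h above 18.5 and 19.2 CPM at 6 h and 15.7 and 18.1 CPM at 18 h. In the 6 genes the change over time ran from -0.02 to 0.01, with standard errors of 0.07 to 0.11. They were chosen for being flat, so this describes them and tests nothing.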

How the data were processed

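Gene counts, one raw number of reads per symbol, were deposited for total RNA made into Nextera libraries. Per the submitters' processing notes the authors used STAR, hg19 and DESeq2. The sources used here do not give versions, counter, annotation, strand setting or model, so reads of overlapping or antisense genes may be shared. The table had 20114 genes, 2709 of them with no count, and all 12 columns were used.

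In R 4.3.3, edgeR 4.0.16 kept 13872 genes (filterByExpr, 6 groups), scaled libraries by TMM and ran its quasi-likelihood F test (robust) on a single fit of the 6 groups, with Benjamini-Hochberg adjustment. A standard error is the absolute log2 fold change divided by the square root of F, and CPM use TMM-scaled totals. Alternatives were DESeq2 1.42.0 and its size factors, other filters on low counts, the replicate block, leaving out mitochondrially encoded genes, fewer libraries, and each library left out in turn. Scripts were tested on simulated data. Promoter windows came from RefSeq (GRCh38.p14), matched by symbol.

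Deviations of same-numbered libraries from their group means correlated with r of 0.464 to 0.677 over 15 pairs of groups (across genes, which are not independent). The labels do not say what the replicate number shares, so the main fit left it out. A second fit with it as a block is what the text calls "with pairing". That block took the biological coefficient of variation from 0.163 to 0.0678 and the residual degrees of freedom from 6 to 5. Chi-square per degree of freedom between replicates of a group ran from 42.6 to 63.9, so no library repeated another.

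Named genes were the 14 largest called rises and falls (average log2 CPM of at least 2, no overlap between libraries, no clone, antisense, LINC, LOC or pseudogene symbols) and up to 4 called members per list with the smallest adjusted p (some left out for length). Added to these were 14 fixed genes, the 6 largest called differences from vehicle over time in each direction, the largest called vehicle changes (there were none), and 6 flat genes. Members, the 36 lists and this rule were chosen with earlier results of these data known. The 100 pM contrasts, the E-box and the fits of lists without 1 library were added after seeing the data. Of 947 listed symbols 856 were tested, 4 of them under an older symbol. Some items are not reported here.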

Additional observations from a re-analysis of the deposited data

Results flagged for a closer look

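The change between 6 h and 18 h differed by dose in a test of the difference itself. Against the vehicle change, the 10 nM change was higher for 631 genes and lower for 831, and against the 100 pM change it was higher for 769 and lower for 928 (edgeR, adjusted p under 0.05). The largest positive differences from vehicle among the genes that met the naming rule, on the log2 scale, were FAM83A at 5.12, SLPI at 3.04, CLDN8 at 2.92, CSRNP3 at 2.70, RNF43 at 2.62 and SLITRK5 at 2.43. The largest negative differences were CTNND2 at -3.53, FGF12 at -3.49, ENTPD3 at -3.26, BCAS1 at -3.02, TPM4 at -2.96 and APLN at -2.71.

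CLDN8 was no longer called in this test when genes with low counts were kept in the fit (2.91, adjusted p = 0.0602), nor with only the 8 libraries of both groups in the fit (2.91, adjusted p = 0.0889). When each of the 8 libraries was left out in turn, SLPI lost its call in 7 of the fits (adjusted p from 0.0563 to 0.154, the highest without vehicle 6 h replicate 1). CLDN8 lost it in 6 (adjusted p from 0.0666 to 0.156, the highest without vehicle 6 h replicate 3) and CTNND2 in 6 (adjusted p from 0.0506 to 0.0997, the highest without that library too). APLN lost it in 2, without vehicle 18 h replicate 3 (-2.16, adjusted p = 0.0978) and vehicle 6 h replicate 1 (-2.41, adjusted p = 0.0571). At 6 h of 10 nM FAM83A, CSRNP3, RNF43 and SLITRK5 were below both vehicle libraries, whereas SLPI was above them.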

How the results depend on the processing

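Of 136 named genes called between 6 h and 18 h at 10 nM, 77 stayed called under each alternative run, 133 under each one that kept all 12 libraries, and no call changed direction. The other 3, CDH3, DDX58 and FDPS, missed the threshold with no filter on low counts (adjusted p = 0.0539, 0.0547 and 0.0505). Of the genes not called, 7 were called under some alternative. The 3393 calls became 6819 with the replicate block, 1916 with only the 4 libraries compared and 1817 to 2282 without 1 replicate. The vehicle comparison had 0 calls, 2 with DESeq2 (ENC1 and MTRNR2L12), 4 with the replicate block and 0 in each fit without 1 replicate. The difference from vehicle (1462) became 2316 with DESeq2, 4863 with the replicate block and 467 to 860 without 1 replicate. At 100 pM the 164 calls became 855 with DESeq2, 3076 with the replicate block, 0 with only its 4 libraries and 9 to 26 without 1 replicate, and the share higher went from 44.5% to 56% with DESeq2 and 53.1% with its size factors. The difference from 100 pM (1697) became 861 with only the 8 libraries of both doses, 2553 with DESeq2, 5215 with the replicate block and 746 to 1282 without 1 replicate. The cause of these shifts was not tested, beyond the fewer samples and residual degrees of freedom of fits that leave libraries out, where a single remaining library is taken to have the spread of the rest. The median of all genes moved by less than 0.1 (log2) under each scaling. The block changed no call of a named gene other than those given with pairing. With 2 libraries a group, small changes may have gone undetected.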
